A study of Mus musculus with 21 samples.

Results

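The TNF superfamily ligands and receptors were followed in whole livers of mice that lack the transcription factor gene Gata4 in sinusoidal endothelium. Members were the rows of the deposited expression table whose symbol starts with Tnfrsf or Tnfsf, together with Tnf, Lta, Ltb, Ltbr, Fas, Fasl, Cd27, Cd40, Cd40lg, Cd70, Eda, Edar and Eda2r. This gave 44 of 25428 genes, namely 17 ligands, 26 receptors and 1 antisense RNA (Tnfsf13os). Single genes entered by symbol, not by value, but the family as a whole was selected on known log2 differences between the genotypes, so its counts are a description and no list was tested.

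The knockout livers (gata4-lsec-ko in the labels; n = 10) came from mice with floxed Gata4 alleles (Gata4tm1.1Sad) crossed to the driver C57BL/6N-Tg(Clec4g-icre)1.1Sgoe, in which Cre is expressed under Clec4g sequence, active in liver sinusoidal endothelial cells. The control livers (labelled wt; n = 11) came from siblings, and the labels do not say whether these carried the driver or the floxed alleles. All 21 mice had the standard diet (std). The labels give neither sex nor age. RNA of each whole liver was hybridised to 1 Affymetrix array, and values are log2 RMA signals. The sample numbers form 2 runs of consecutive values, called run 1 (5 control and 4 knockout livers) and run 2 (6 and 6), which the labels do not call batches.

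Ligands of this superfamily are mostly membrane proteins made as trimers, and some are shed as soluble cytokines. Their receptors either carry a death domain and can recruit caspases, or bind TRAF adaptors and switch on NF-kappaB and stress kinases, and many do both. In liver the family is known for hepatocyte death through Fas, TRAIL receptors and TNFR1, for regeneration through TNFR1 and the TWEAK receptor Fn14, and for the lymphotoxin and BAFF signals of lymphocytes.

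The arrays shared 1 value distribution, with a median of 3.75 and a lower quartile of 2.98, and 30 of the 44 members had a control mean under that median, where a signal can lie close to background. Hepatocyte markers identified the tissue, with Alb between 13.75 and 13.81 in all livers. Gata4 itself ran from 6.34 to 7.35 in control and from 6.10 to 6.92 in knockout livers, a log2 difference of -0.19 ± 0.10 (SE) that did not pass (adjusted p = 0.26, limma). Where its probes lie relative to the floxed part is not known here, so this value does not check the labels. Knockout replicate 6 stood apart in blood cell markers: its neutrophil score (mean log2 value of the marker list) was 8.27, with the next knockout liver at 5.81, and it had the highest B cell, plasma cell and monocyte scores (4.13, 7.35 and 6.06). It also held the highest values of Tnfrsf1a, Tnfrsf21 and Fas, whose differences without it were 0.39 (adjusted p = 0.070), 0.41 (adjusted p = 0.014) and 0.020 (adjusted p = 0.93, limma). The same liver was highest for Tnfrsf1b, Ltbr and Tnfrsf13b too (8.125, 7.62 and 3.25). Without it Cd27 also missed the threshold (0.24; adjusted p = 0.066), and 4 members rose. The part of these cells in the results was not tested.

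Each difference is the log2 value of knockout livers less that of controls, from a limma fit with run as a term, and is given with its SE. Adjusted p-values are Benjamini-Hochberg values over the 25428 genes. A gene rose or fell where the adjusted p was below 0.05.

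Receptors made up most of the members that differed, and they are also most of the family. Of the 44 members 7 differed, 15.9% against 7.33% of all genes. Of these 6 rose, which is 13.6% against 3.28% of all genes, and 1 fell, 2.27% against 4.05% of all genes. The genes that rose were Tnfrsf12a, Tnfrsf21, Tnfrsf10b, Tnfrsf1a, Cd27 and the ligand Ltb, and the gene that fell was Edar. Among 17 ligands 1 rose and none fell, with differences from -0.076 to 0.52 and a median of 0.10. Among 26 receptors 5 rose and 1 fell, with differences from -0.22 to 1.34 and a median of 0.095, while the median over all genes was -0.013. Since the family was chosen with this contrast known, nothing is read from these shares. A larger part of the ligands was dim: 15 of 17 ligands and 14 of 26 receptors had a control mean under the array median. The part of dim signals in the calls of either class was not tested. The members nearest the threshold on either side were Cd27 (adjusted p = 0.045) and Tnfsf13 (adjusted p = 0.072).

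**Figure D1:**
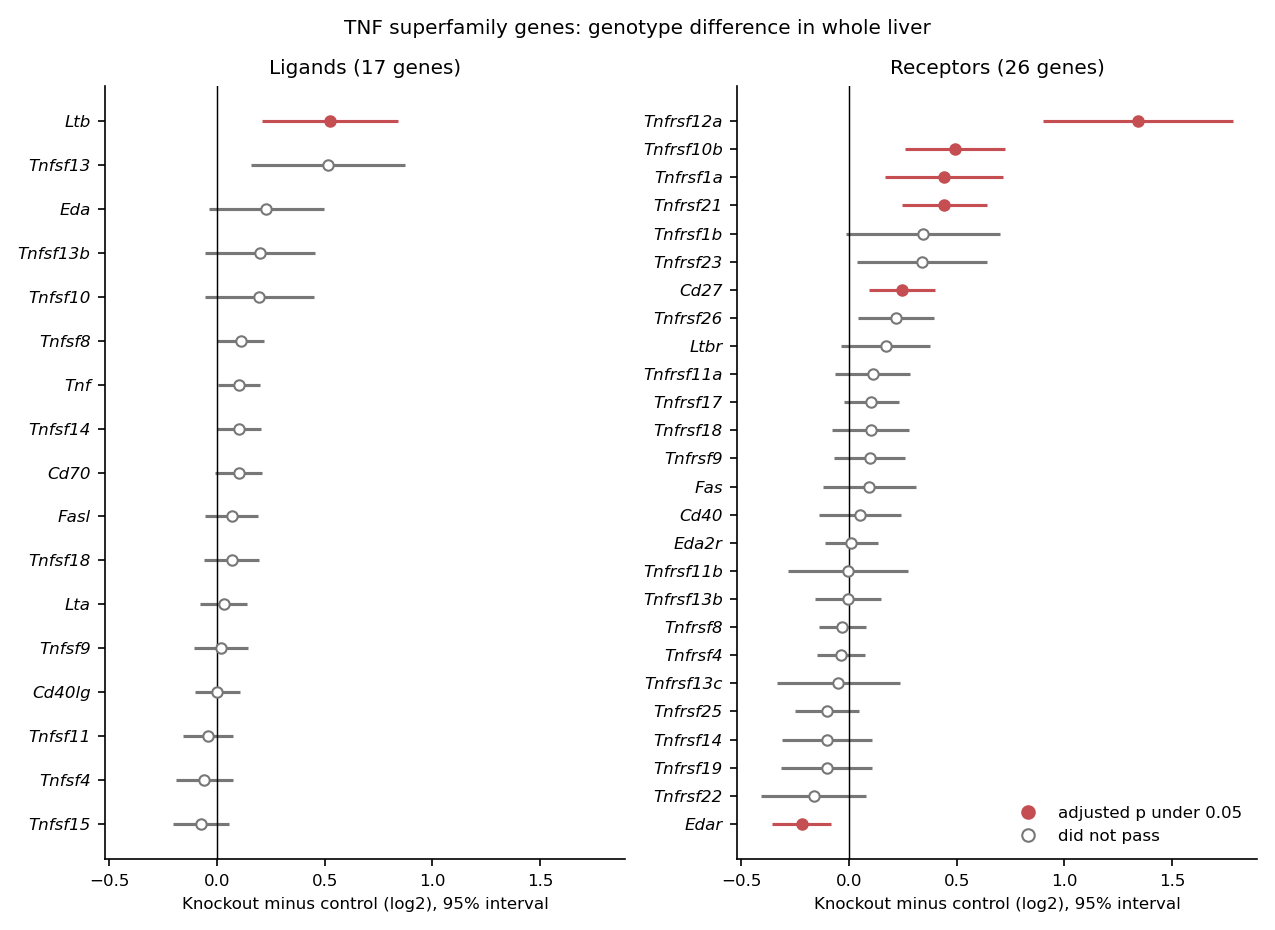
Knockout minus control difference (log2, x axis) of each ligand (left) and receptor (right) with its 95% interval from the limma fit over 21 livers; filled red points had an adjusted p under 0.05. Tnfrsf12a at 1.34 lies apart from all other members, which run from -0.22 to 0.52.

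Tnfrsf12a showed the largest difference of the family. It encodes Fn14, the small TRAF-binding receptor of the cytokine TWEAK, which is induced in injured and regenerating tissue. Its promoter, the 250 bases before the start (RefSeq, GRCm38.p6, chr17:23677450-23677699, minus strand), is printed because no other member changed as much. Capitals mark matches on either strand to the letters GGGNNNNNCC, a loose form of the NF-kappaB site.
Tnfrsf12a: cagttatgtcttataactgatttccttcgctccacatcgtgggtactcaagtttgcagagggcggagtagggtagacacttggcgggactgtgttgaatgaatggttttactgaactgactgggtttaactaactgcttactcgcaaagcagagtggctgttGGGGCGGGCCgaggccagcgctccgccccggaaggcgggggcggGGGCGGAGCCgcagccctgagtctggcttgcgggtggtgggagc
The 2 matches begin 88 and 44 bases before the start.

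The log2 signal of Tnfrsf12a in control livers was 4.52 at the lowest, 5.20 at the median and 6.09 at the highest, and in knockout livers 5.19, 6.65 and 7.49. Thus 8 of 10 knockout livers lay above every control, and 10 of 10 lay above the control mean of their run. The difference was 1.34 ± 0.21 (SE; adjusted p = 0.0013), or 2.53-fold, and the means were 5.22 ± 0.58 (SD, n = 11; control) and 6.52 ± 0.73 (SD, n = 10; knockout). Control livers of run 2 were lower than those of run 1 by 0.99 ± 0.15 (SE; adjusted p = 0.0059, limma over 11 controls). Within runs the genotypes differed by 1.10 and 1.52, and all 4 knockout livers of run 1 (6.56 to 7.49) lay above its 5 controls (5.31 to 6.09). In run 2 the knockout livers fell apart, with replicates 5 and 6 at 5.19 and 5.36 beside the highest control at 5.20, and the other 4 between 6.37 and 7.08. The call held without any single liver (adjusted p from 3.87e-04 to 0.0033). No row carried Tnfsf12, the gene of TWEAK, as its only symbol, so that gene was not analysed here.

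**Figure D2:**
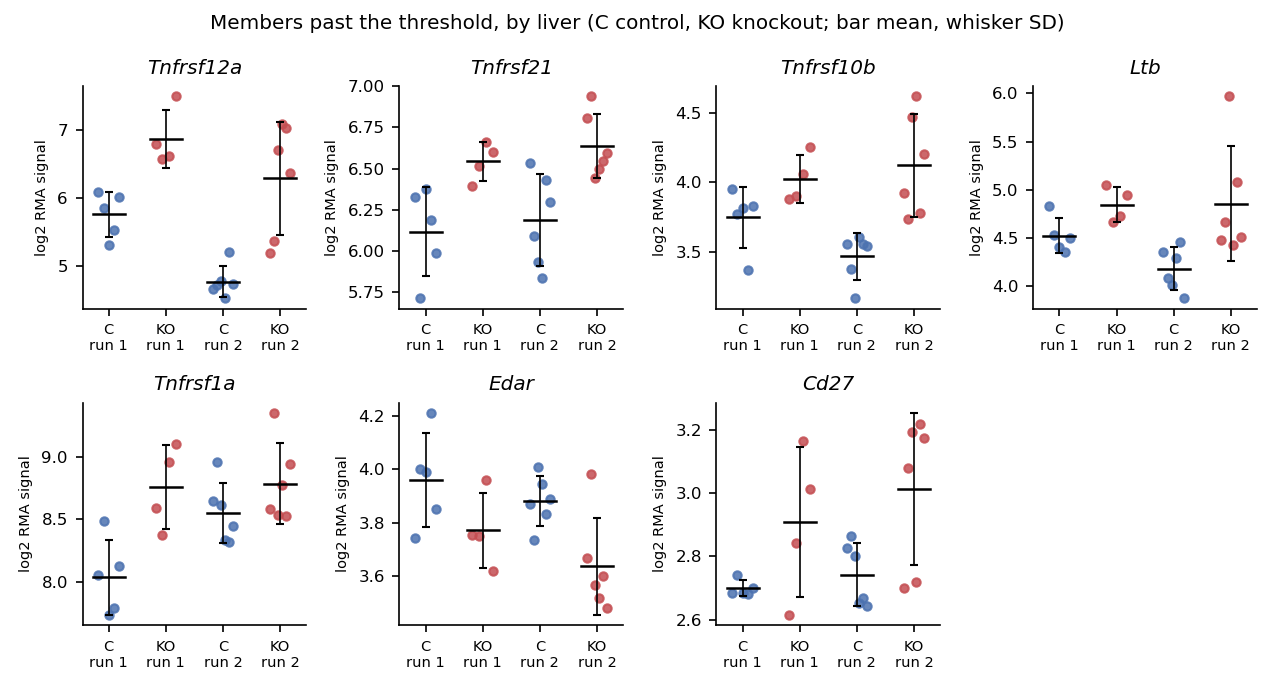
Log2 RMA signal (y axis) of the 7 members past the threshold in every liver, split by genotype (C control, blue; KO knockout, red) and number run; bars are means and whiskers SD. The genotypes are clear of each other within run 1 for Tnfrsf12a, and Ltb has 1 knockout liver at 5.97 far above the rest.

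Of the death ligands and receptors, both Tnfrsf21 and Tnfrsf10b rose. Tnfrsf21, the gene of the death domain receptor DR6, ran from 5.71 through a median of 6.19 to 6.53 in controls and from 6.39 through 6.57 to 6.94 in knockout livers. All knockout livers were above the control mean of their run and 6 of 10 were above every control. It rose by 0.44 ± 0.09 (SE; adjusted p = 0.0086), or 1.36-fold, with 0.43 in run 1 and 0.45 in run 2. Tnfrsf10b, the mouse receptor that passes on the death signal of TRAIL, had a lowest, median and highest value of 3.16, 3.56 and 3.95 in controls and 3.74, 3.99 and 4.62 in knockout livers. Here 5 of 10 knockout livers exceeded every control and 10 of 10 exceeded the control mean of their run. The rise was 0.49 ± 0.11 (SE; adjusted p = 0.011), or 1.41-fold, with 0.28 in run 1 and 0.65 in run 2. Tnfrsf10b was dim, with a control mean of 3.59, under the array median of 3.75. Both calls held without any single liver (adjusted p up to 0.019 for Tnfrsf21 and up to 0.024 for Tnfrsf10b).

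The ligand of that receptor, TRAIL, showed no such clear shift. Its gene Tnfsf10 ran from 3.38 to 4.14 in controls and from 3.43 to 4.96 in knockout livers, and 2 knockout livers lay above every control. The difference was 0.20 ± 0.12 (SE; adjusted p = 0.37; 95% interval -0.057 to 0.45). Fas, the receptor of Fas ligand and a strong trigger of hepatocyte death, had means of 7.21 ± 0.12 (SD, n = 11; control) and 7.30 ± 0.33 (SD, n = 10; knockout). Its difference of 0.094 ± 0.10 did not pass (adjusted p = 0.66), and it was 0.30 in run 1 and -0.056 in run 2. Fasl (0.068) and Tnfsf15, the gene of TL1A (-0.076), did not pass, nor did the TL1A receptor gene Tnfrsf25 (-0.10). The decoy-type receptor genes Tnfrsf23 (0.34 ± 0.15; adjusted p = 0.16), Tnfrsf26 (0.22 ± 0.08; adjusted p = 0.12) and Tnfrsf22 (-0.16 ± 0.12; adjusted p = 0.45) did not pass. These 3 genes are related, and whether the probes separate them was not tested, which leaves each value uncertain.

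TNF and the lymphotoxins are the founding ligands of the family, and of these Ltb rose. Ltb encodes lymphotoxin beta, the membrane anchor of a lymphotoxin trimer carried by lymphocytes. Its promoter (RefSeq, GRCm38.p6, chr17:35194257-35194506, plus strand) is printed as that of the 1 ligand that rose, with matches to GGGNNNNNCC on either strand in capitals.
Ltb: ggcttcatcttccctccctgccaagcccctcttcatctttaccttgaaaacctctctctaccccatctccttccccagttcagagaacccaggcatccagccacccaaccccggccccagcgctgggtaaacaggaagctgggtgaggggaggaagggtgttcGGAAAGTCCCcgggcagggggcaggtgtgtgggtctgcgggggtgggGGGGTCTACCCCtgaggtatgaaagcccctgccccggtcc
There are 4 matches, which begin 87, 40, 39 and 38 bases before the start, the last 3 of them overlapping.

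Ltb had a lowest, median and highest value of 3.88, 4.36 and 4.83 in controls and of 4.43, 4.70 and 5.97 in knockout livers. The highest value belonged to knockout replicate 7, the next was 5.09, and 4 of 10 knockout livers lay above every control. The rise was 0.52 ± 0.15 (SE; adjusted p = 0.038), or 1.44-fold, with 0.32 in run 1 and 0.67 in run 2. It was 0.39 without knockout replicate 7 and still passed, but leaving out control replicate 4, 7, 8, 9 or 11 or knockout replicate 1, 4 or 9 ended the call (highest adjusted p 0.071). Of 13 measured B cell markers 4 rose between the genotypes, against 3.28% of all genes. Among them were Fcer2a, the gene of CD23 (1.08 ± 0.08), and the B cell receptor subunits Cd79a and Cd79b (0.57 ± 0.14 and 0.54 ± 0.15). The mean log2 value of the list ran from 3.33 to 3.54 in controls and from 3.59 to 4.13 in knockout livers. Of those 13 markers, 11 had a control mean under the array median. Of 15 T cell markers 9 had a positive and 6 a negative difference (median 0.027). Of these 1 rose, Cd3e, whose call ended with any of 4 livers left out and with array weights, and the list ran from 3.62 to 3.73 in controls and from 3.60 to 3.87 in knockout livers. Their part in the rise of Ltb was not tested across genotypes. In whole liver more cells of a type and more RNA per cell cannot be told apart.

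The partners of Ltb did not pass the test. Lta, the other subunit, ran from 2.999 to 3.37 in controls and from 3.04 to 3.34 in knockout livers (0.031 ± 0.053, SE; 95% interval -0.079 to 0.14). Ltbr, the receptor on stroma and hepatocytes, had 7.04 ± 0.36 (SD, n = 11) and 7.24 ± 0.25 (SD, n = 10), a difference of 0.17 ± 0.10 (SE; adjusted p = 0.33), and 4 of 10 knockout livers lay above every control, as many as for Ltb. Tnf itself was dim, from 2.98 through 3.15 to 3.29 in controls and from 3.12 through 3.24 to 3.37 in knockout livers. The Tnf difference of 0.10 ± 0.05 (SE) did not pass (adjusted p = 0.21; 95% interval 0.0024 to 0.20), and 3 of 10 knockout livers lay above every control.

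Of the TNF receptors, Tnfrsf1a rose. It encodes TNFR1, the widely expressed death domain receptor of TNF. Tnfrsf1a ran from 7.73 through a median of 8.34 to 8.96 in controls and from 8.37 through 8.68 to 9.36 in knockout livers. Only 3 of 10 knockout livers lay above every control, and 8 of 10 above the control mean of their run. The rise was 0.44 ± 0.13 (SE; adjusted p = 0.044), or 1.36-fold, 0.72 in run 1 and 0.23 in run 2. Leaving out any of 14 livers ended the call (highest adjusted p 0.087), as did leaving out the run term. Tnfrsf1b, the gene of TNFR2 on leukocytes and endothelium, had a difference of 0.34 ± 0.17 (SE; adjusted p = 0.245) that is taken up with the runs.

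Lymphocyte costimulation was represented by 7 ligands and 7 receptors, of which Cd27 rose. CD27 is a receptor of lymphocytes that binds CD70. Cd27 values lay near the bottom of the array, from 2.64 through 2.68 to 2.87 in controls and from 2.61 through 3.05 to 3.22 in knockout livers. The knockout livers were divided, with 6 above every control and 1 below every control. The rise was 0.24 ± 0.07 (SE; adjusted p = 0.045), or 1.18-fold. The Cd27 call ended with any of 16 livers left out (highest adjusted p 0.091) and with array weights. Control livers had a mean of 2.72, under the lower quartile of all values. Cd70, its ligand, ran from 2.36 to 2.58 in controls and from 2.33 to 2.82 in knockout livers (0.10 ± 0.05, SE; adjusted p = 0.28). None of the other 6 ligands passed, with differences from -0.059 (Tnfsf4, the gene of OX40 ligand) to 0.11 (Tnfsf8, that of CD30 ligand). Nor did the other 6 receptors, which ran from -0.10 (Tnfrsf14, the gene of HVEM) to 0.10 (Tnfrsf18, that of GITR). Cd40lg, which signals to B cells through CD40, was at 2.67 in both genotypes (0.0011 ± 0.051).

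BAFF and APRIL are survival cytokines of B cells and plasma cells, and none of their 5 genes passed. Tnfsf13, the gene of APRIL, had a lowest, median and highest value of 2.54, 3.19 and 3.46 in controls and of 2.85, 3.74 and 4.32 in knockout livers. Thus 6 of 10 knockout livers were above every control, yet the others reached down into the control range. Its difference of 0.51 ± 0.17 (SE; 95% interval 0.16 to 0.87) missed the threshold (adjusted p = 0.072), and it passed without knockout replicate 4 or 8 (adjusted p as low as 0.028). The antisense RNA Tnfsf13os had a difference of 0.051 ± 0.072. Tnfsf13b, the gene of BAFF, ran from 3.18 to 4.53 in controls and from 3.82 to 4.23 in knockout livers (0.20 ± 0.12, SE; adjusted p = 0.37). Without control replicates 3 and 4, which held its 2 highest control values (4.53 and 4.26), the difference was 0.34 and passed (adjusted p = 0.024). The receptor genes of these cytokines showed no shift past the test. Tnfrsf13c, the BAFF receptor gene of B cells, had means of 5.04 ± 0.38 (SD, n = 11; control) and 4.99 ± 0.25 (SD, n = 10; knockout) (-0.049 ± 0.14, SE; 95% interval -0.33 to 0.23). Tnfrsf13b, the gene of TACI, had a difference of -0.0070 and Tnfrsf17, the plasma cell receptor gene BCMA, one of 0.10 (adjusted p = 0.34). In the same livers 5 of 12 plasma cell markers rose, against 3.28% of all genes. The lowest adjusted p were those of the immunoglobulin genes Igha (1.74), Igkc (2.24) and Ighg1 (2.20). The plasma cell list ran from 5.22 to 6.47 in controls and from 6.24 to 7.35 in knockout livers.

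**Figure D3:**
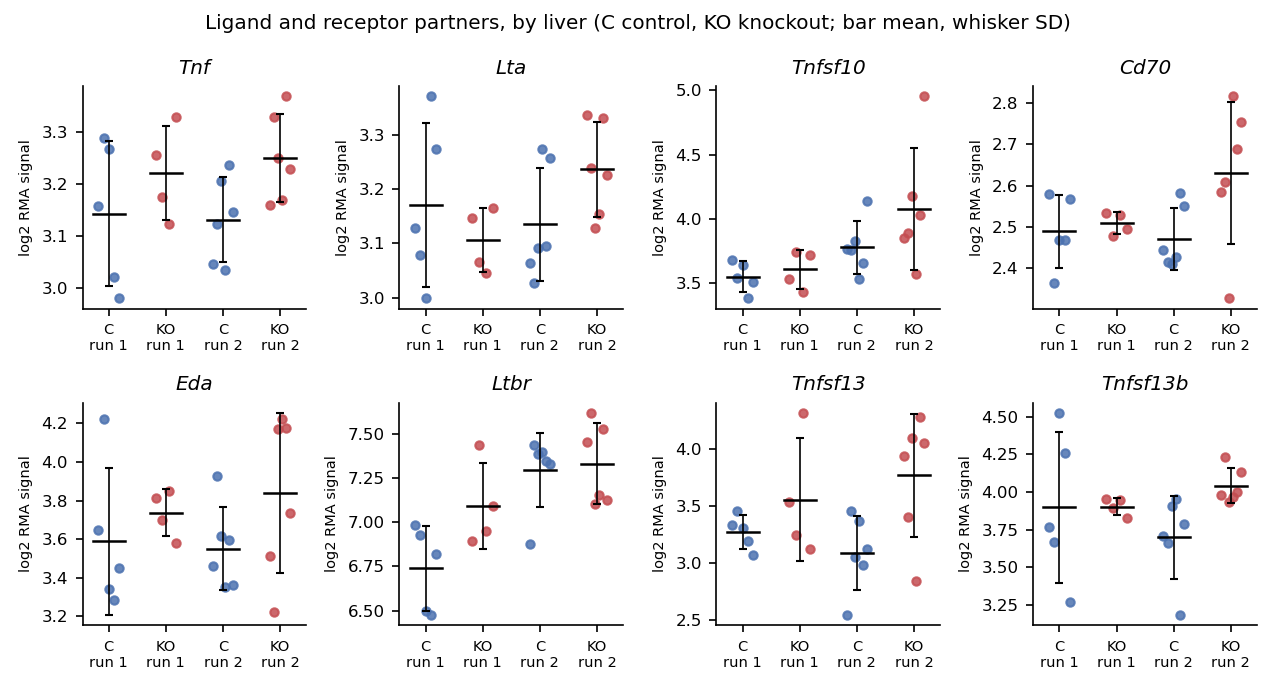
Log2 RMA signal (y axis) of ligand and receptor partners that did not pass the test, in every liver, split by genotype (C control, blue; KO knockout, red) and number run; bars are means and whiskers SD. The genotypes overlap in each panel, and Tnfsf13 has 6 of 10 knockout livers above its highest control of 3.46.

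The ectodysplasin branch, known from the growth of hair and glands, held the member that fell. Edar encodes the receptor of ectodysplasin A. Its promoter (RefSeq, GRCm38.p6, chr10:58675697-58675946, minus strand) is printed as that of the 1 member that fell. Capitals mark 1 GATA match (AGATAA or AGATAG or TGATAA or TGATAG on either strand), which begins 230 bases before the start, and 1 match to GGGNNNNNCC on the minus strand of the printed sequence, which begins 106 bases before it.
Edar: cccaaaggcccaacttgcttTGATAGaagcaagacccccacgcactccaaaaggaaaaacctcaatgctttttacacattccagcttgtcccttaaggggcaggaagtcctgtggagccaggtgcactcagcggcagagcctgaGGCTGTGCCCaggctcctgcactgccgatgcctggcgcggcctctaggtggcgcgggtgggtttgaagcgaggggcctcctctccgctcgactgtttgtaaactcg

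Edar ran from 3.74 through 3.89 to 4.21 in controls and from 3.48 through 3.64 to 3.98 in knockout livers, with 6 of 10 knockout livers below every control. It fell by 0.22 ± 0.07 (SE; adjusted p = 0.045), or 1.16-fold. This call ended with any of 16 livers left out (highest adjusted p 0.0845) and without the run term. The ligand gene Eda had values from 3.28 to 4.23 in controls and from 3.22 to 4.22 in knockout livers, a difference of 0.23 ± 0.13 (SE; adjusted p = 0.31) in the other direction that did not pass. Eda2r, the receptor of the second ectodysplasin form, had a difference of 0.011 ± 0.058, and Tnfrsf19, the gene of the related receptor TROY, one of -0.10 ± 0.10. Of the genes of bone resorption, Tnfsf11 (RANK ligand) had a difference of -0.042, its receptor gene Tnfrsf11a one of 0.11 and Tnfrsf11b, the gene of the soluble decoy osteoprotegerin, one of -0.0052 ± 0.13; none passed.

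Whether the difference changed between the runs was tested with a genotype by run term, which does not use the average difference. None of the 44 members passed (limma, adjusted p under 0.05; 0.0315% of all genes did), nor did any with an intensity trend and a robust prior, and 4 members (9.09%) had an unadjusted p under 0.05, against 10.2% of all genes. These 4 are given as values, and nothing is read from their number. The smallest p was that of Tnfrsf1b, with a difference of 0.85 in run 1 and -0.031 in run 2 (interaction -0.88 ± 0.30, SE; adjusted p = 0.28). The run 1 controls had the lowest values of Tnfrsf1b, from 5.88 to 6.67, below all 4 knockout livers of run 1 (6.76 to 7.59) and all run 2 livers (6.78 to 8.12). Tnfrsf11b went from -0.39 in run 1 to 0.28 in run 2 (interaction 0.68 ± 0.23, SE; adjusted p = 0.28) and Cd40 from -0.17 to 0.21 (adjusted p = 0.45). The fourth was Tnfsf13os.

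Control livers alone also differed between runs in this family. Of the 44 members 3 passed between runs (limma over 11 controls), against 3.57% of all genes; 2 were higher in run 2 (1.74% of all genes) and 1 was lower (1.83%). Between genotypes within a run, 0 members passed in run 1 (0.0118% of all genes, limma) and 2 in run 2, Tnfrsf12a and Tnfrsf10b (5.06%). Tnfrsf1b was higher in run 2 by 1.26 ± 0.15 (SE; adjusted p = 0.0019), Ltbr was higher by 0.55 ± 0.13 (adjusted p = 0.033) and Tnfrsf12a lower, as given above. The difference of Tnfrsf1a between control runs was 0.52 ± 0.15 (adjusted p = 0.088).

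**Figure D4:**
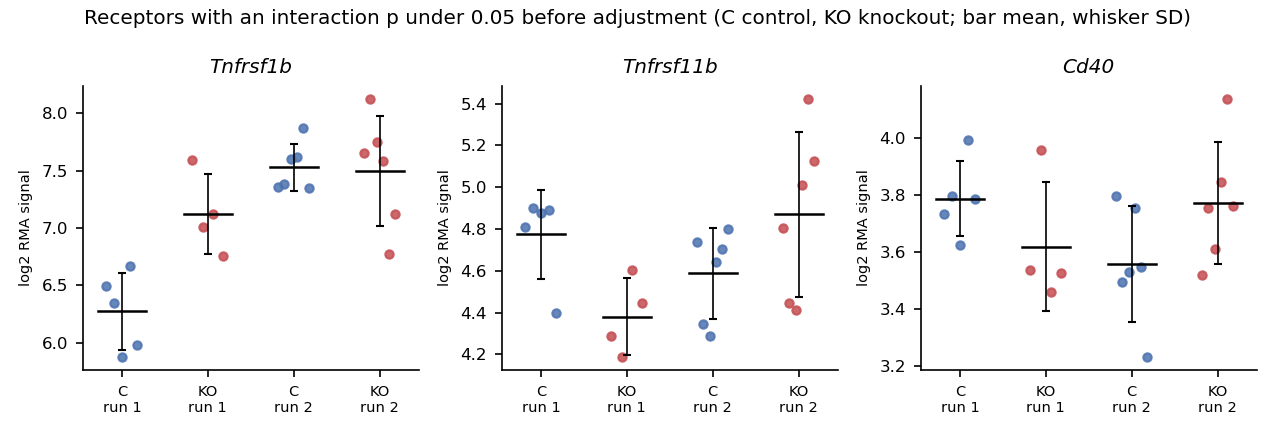
Log2 RMA signal (y axis) of the 3 receptors with an unadjusted interaction p under 0.05, in every liver, split by genotype (C control, blue; KO knockout, red) and number run; bars are means and whiskers SD. For Tnfrsf1b the 5 run 1 controls (5.88 to 6.67) lie below every other liver.

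The values of livers within a genotype were set against marker scores. This spread also gave the SE by which the 7 members passed, so it is not independent of their choice. A score was the mean log2 value of a marker list, and both values were centred on the run. For the 7 members past the threshold and 8 lists in both genotypes, 112 relations were computed, and none passed (permutation within runs, two-sided, adjusted over the 112), by Pearson's r or by Spearman's rho, while 9 had an unadjusted Pearson p under 0.05. The closest relation was that of Tnfrsf1a with plasma cell markers over 10 knockout livers (r = 0.918, permutation p = 0.0023, adjusted p = 0.26; rho = 0.842, permutation p = 0.0078, adjusted p = 0.80; r = 0.835 without the 2 livers farthest from the median score). For Ltb and B cell markers r was 0.235 over 11 controls (permutation p = 0.50, adjusted p = 0.80; rho = 0.345, permutation p = 0.33, adjusted p = 0.89; r = 0.389 without 2 livers). Over 10 knockout livers it was -0.062 (permutation p = 0.87, adjusted p = 0.92; rho = 0.321, permutation p = 0.42, adjusted p = 0.89; r = 0.065 without 2 livers). The largest r of Ltb over knockout livers were 0.874 with cholangiocyte markers (permutation p = 0.058, adjusted p = 0.53) and 0.708 with T cell markers (permutation p = 0.084, adjusted p = 0.53). Without 2 livers these were 0.067 and -0.28, and over 11 controls 0.389 and 0.072. Knockout replicate 7, the highest in Ltb, also had the highest cholangiocyte and T cell scores (4.33 and 3.87).

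Other cell types moved between the genotypes as well, and their part in the receptor differences was not tested beyond these relations. Genes named here are those with the lowest adjusted p in their list. Over all genes 3.28% rose and 4.05% fell. The lists were chosen with earlier results of these data known, so their counts are a description. Of 14 monocyte and recruited macrophage markers 5 rose, among them Cd52, Ccr2 and Cd9 (1.62, 1.17 and 0.93), with list values from 4.43 to 5.64 in controls and from 4.93 to 6.06 in knockout livers. Kupffer cell markers had 6 of 12 higher, among them the complement genes C1qb, C1qa and C1qc (1.46, 0.79 and 1.16), and their list ran from 5.77 to 7.85 in controls and from 7.16 to 8.08 in knockout livers. Markers of continuous endothelium had 8 of 11 higher and 1 lower (4.41 to 4.99 in controls, 5.14 to 5.82 in knockout livers). Among those higher were Esm1, Col4a1 and Col4a2 (2.05, 0.88 and 0.63). Against these, 3 of the 11 had a negative difference, the lowest being -0.62. Sinusoidal endothelial markers had 9 of 14 lower (6.42 to 7.31 and 5.93 to 6.60), among them Plxnc1, Bmp2 and F8 (-1.01, -1.17 and -0.77). In this list 1 marker had a positive difference (0.58) that did not pass. None of 6 cholangiocyte markers passed (3.37 to 3.88 and 3.59 to 4.33), the lowest p being that of Sox9 (0.57; adjusted p = 0.060), which passed with any of 5 single livers left out (lowest adjusted p 0.038) and without dim genes.

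Genes that act below the receptors are given by list, beside the 3.28% of all genes that rose and the 4.05% that fell, and nothing is read from lists with a single call. Of 13 TRAF and death domain adaptors 1 rose, Traf7 (0.30 ± 0.09, SE; adjusted p = 0.045), and none fell. Leaving out any of 16 livers ended the Traf7 call (highest adjusted p 0.085), as did leaving out the run term. Of 14 kinases 1 fell, Ikbkg, the regulatory NEMO subunit of the IkappaB kinase (-0.33 ± 0.08; adjusted p = 0.016), in 10 of 10 knockout livers against the control mean of their run. Among 12 NF-kappaB subunits and inhibitors, Rela, the p65 subunit, rose by 0.32 ± 0.06 (adjusted p = 0.0039) and Commd1, a factor that promotes the turnover of p65, fell by 0.48 ± 0.08 (adjusted p = 0.0021). Among 14 ubiquitin ligases and deubiquitinases, Tnfaip3, the A20 protein that limits NF-kappaB, rose by 0.44 ± 0.12 (adjusted p = 0.032), Otud7b rose by 0.26 ± 0.07 and Otulin, which removes linear ubiquitin, fell by 0.39 ± 0.07 (adjusted p = 0.0040). The Tnfaip3 call ended with any of 9 livers left out (highest adjusted p 0.063) and that of Otud7b with any of 7 (0.061). The medians of these 4 lists lay between -0.021 and 0.074.

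Cell death effectors rose in part. Of 12 measured, Mlkl, the pore-forming protein of necroptosis, rose by 0.75 ± 0.14 (SE; adjusted p = 0.0043), Zbp1, a nucleic acid sensor upstream of it, by 0.75 ± 0.17 (adjusted p = 0.012) and Bid, which links caspase 8 to mitochondria, by 0.41 ± 0.10 (adjusted p = 0.015), and none fell. Each was above the control mean of the run in 10 of 10 knockout livers. The list median was 0.11. Of 8 sheddases and regulators, which release TNF ligands and receptors from the membrane, Timp3, an inhibitor of the TNF sheddase, rose by 0.97 ± 0.16 (adjusted p = 0.0015), from 6.50 ± 0.38 (SD, n = 11) to 7.47 ± 0.37 (SD, n = 10).

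Genes that TNF and NF-kappaB are known to induce had 4 of 29 members higher and none lower, against 3.28% and 4.05% of all genes, with a median of 0.026. Vcam1, an adhesion molecule of activated endothelium, rose by 1.202 ± 0.18 (SE; adjusted p = 7.43e-04), with 5.39 to 7.81 in controls and 7.71 to 8.57 in knockout livers. The chemokine gene Cxcl10 rose by 0.84 ± 0.21 (adjusted p = 0.021) and the early response gene Ier3 by 0.50 ± 0.13 (adjusted p = 0.027), a call that ended without control replicate 9 or knockout replicate 3 (highest adjusted p 0.052). The fourth was Bcl2a1a, dim in controls at 2.47. None of 7 measured genes of lymphotoxin and alternative NF-kappaB signalling passed, with differences from -0.21 to 1.11. The lowest p, though not the largest difference, was that of Cxcl12 (0.32 ± 0.10; adjusted p = 0.057). Cxcl12 passed with any of 5 single livers left out (lowest adjusted p 0.033), with array weights and without dim genes. Of 4 genes related to the receptors but named otherwise, Rell1 rose (0.37 ± 0.08; adjusted p = 0.011).

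**Figure D5:**
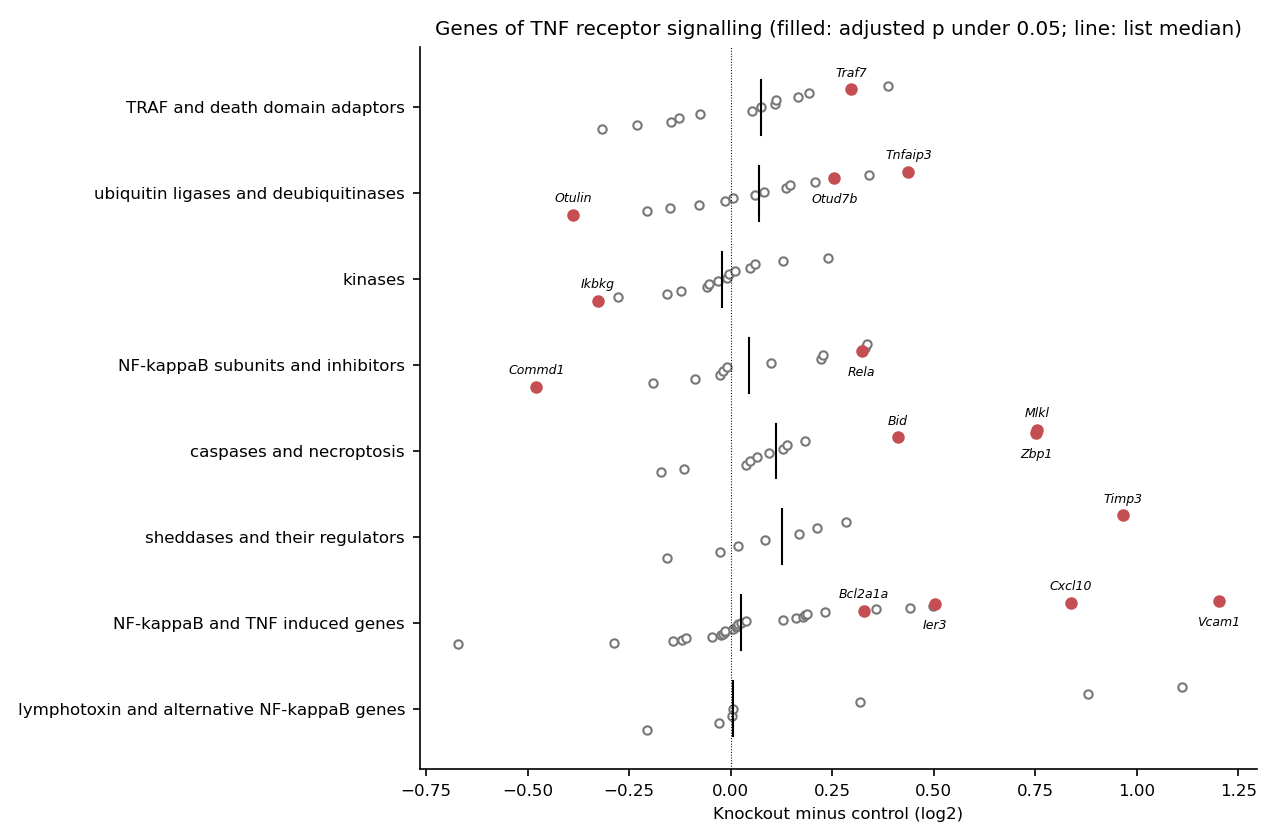
Knockout minus control difference (log2, x axis) of each measured gene of 8 lists of TNF receptor signalling (y axis); filled red points with names had an adjusted p under 0.05 and black lines are list medians. Timp3 at 0.97 and Vcam1 at 1.202 lie farthest to the right among the genes past the threshold, and the medians stay between -0.021 and 0.13.

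Promoters of the members were searched for 3 motifs in the 250 bases before each start (RefSeq, GRCm38.p6). The table held 38 promoters of 34 of the 44 members. The NF-kappaB letters GGGNNNNNCC stood in 25 of these 38 promoters (65.8%) against 45.8% of 32851 promoters in the table, and among the 6 promoters of members past the threshold in 5. A GATA match (AGATAA or AGATAG or TGATAA or TGATAG) stood in 7 of 38 (18.4%) against 26.5%, among them those of Cd27 and Edar. The AP-1 letters TGANTCA stood in 6 of 38 (15.8%) against 6.75%, and in none of the 6. All motifs were searched on both strands, and a match describes letters, not a bound site. The promoter of Tnfrsf21 held none of the 3 motifs, and that of Tnfrsf1a held 1 match to GGGNNNNNCC, 216 bases before the start.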

How the data were processed

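The authors deposited log2 values, which the submitters' processing notes name as RMA. This method adjusts for background, quantile-normalises and joins the probes of a gene, so that a shift common to most genes is lost. Not given in the sources used here are its version, the array build and probe positions. Each of 25428 rows is 1 Entrez gene. Of these 24705 had 1 symbol in the platform annotation, and 723 had no symbol or several. All rows were tested without a filter. Sorted values differed by at most 0.0019 between arrays. Precision is limited by the 21 arrays. The limma p-values weigh a difference against the spread between livers that is left after genotype and run.

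Genotype was fitted with limma 3.58.1 (R 4.3.3; lmFit, eBayes) on genotype and run. Relations used exact permutation within runs. The procedures were tested on simulated data. The replicate numbers do not pair livers (see the closing section). The members and lists were chosen with earlier results of these data known. The 8 pathway and 14 marker lists came from textbook knowledge: 260 of 282 symbols were measured. Lists of NK, dendritic, neutrophil, stellate, hepatocyte and platelet markers are described in the closing section. Named were all members past the threshold, Tnf, their partners, and up to 3 genes per list past the threshold with the lowest adjusted p, or else the 1 lowest. Figures were drawn with matplotlib 3.10.9.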

Additional observations from a re-analysis of the deposited data

Results flagged for a closer look

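In the 10 knockout livers 4 of the 44 members had 1 value far from the others by Dixon's ratio, the gap to the next value over the full range. Their ratios ran from 0.56 (Tnfrsf17) to 0.622 (Tnfrsf25), and members with smaller ratios are not listed. How often chance gives such ratios was not tested, so nothing is read from the number of members listed. Ltb, the lymphotoxin beta gene, was 5.97 in knockout replicate 7, with the next value at 5.09. Tnfrsf17, the plasma cell receptor gene, was 3.13 in knockout replicate 9, with the next at 2.86. Tnfrsf18, the gene of GITR, was 3.29 in knockout replicate 9, below the next at 3.77. Tnfrsf25, the gene of the TL1A receptor, was 3.02 in knockout replicate 8, below the next at 3.33.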

How the results depend on the processing

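The number of members that rose, 6 as reported, was 0 within run 1, 2 within run 2 and 2 with the replicate block; it ran from 3 to 6 without single livers, with 3 when control replicate 4, 8, 9 or 11 was left out. The 1 member that fell was no longer called (0) without the run term, within run 1, within run 2, with the replicate block, with an intensity trend and robust prior, or without both control replicates 3 and 4, the arrays least like their group, an alternative added after seeing the data; it ran from 0 to 1 without single livers. The count of all genes higher, 834, was 2 within run 1 and 552 within run 2, and ran from 565 to 981 without single livers. That of all genes lower, 1030, was 1 within run 1 and 602 with the replicate block, and ran from 629 to 1471, where 629 left out control replicate 8 and 661 control replicate 9. The median of ligands ran from 0.075 to 0.11 and that of receptors from 0.064 to 0.098 without single livers. Without genes under the median mean, 3 ligands were left, with a median of 0.20. A single run holds fewer livers than the full set, and what lowered the number of calls within runs was not tested.

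Replicate numbers are shared by the genotypes, but same-numbered livers did not deviate together (correlation from -0.17 to 0.082 over 10 numbers), and none correlated best with its own number, so the replicate block is no paired analysis. Under it Tnfrsf12a had an adjusted p of 0.0064 and Tnfrsf21 one of 0.019, while Tnfrsf10b had 0.076. Tnfrsf12a, Tnfrsf21 and Tnfrsf10b kept their calls in all 21 fits without a single liver; Ltb, Tnfrsf1a, Cd27 and Edar did not. No called member reversed its direction under any alternative run. The cause of these changes was not tested.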

Other observations

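Other marker lists, which belong in no comparison of the family, had these values, beside 3.28% of all genes higher and 4.05% lower. Neutrophil markers had 1 of 12 higher, with list values from 3.08 to 3.25 in controls and from 3.34 to 8.27 in knockout livers, where 8.27 was knockout replicate 6 alone and the next was 5.81. The 1 was Ngp (2.68 ± 0.58, SE). All 12 neutrophil markers had a positive difference (median 1.11), and all 12 had a control mean under the array median. Stellate cell markers had 4 of 9 higher, those of lowest adjusted p being Cygb, Pdgfrb and Rgs5 (0.96, 0.59 and 0.79), with 6.40 to 6.98 in controls and 6.90 to 7.41 in knockout livers. Of 9 dendritic cell markers 1 was higher, Cd209a (2.43), while 6 had a negative difference (median -0.028). Of 10 NK cell markers 1 was higher, Il2rb (0.39), while 6 had a negative difference (median -0.019). Of 6 platelet markers 1 was higher, Pf4 (0.37), with a list median of 0.11, and its call ended with any of 6 livers left out. Hepatocyte markers had 1 of 8 higher, Hpx (0.41), with 12.26 to 12.53 in controls and 12.46 to 12.56 in knockout livers.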
